A study of Homo sapiens with 6 samples.

Results

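Transcripts of 10 metalloproteases and tissue inhibitors were followed in 6 RNA-seq libraries of cells labelled Saos-2, an established human osteosarcoma line, 3 treated with the solvent DMSO and 3 with 0.20 µM AIL (ailanthone, a plant quassinoid) for 24 h. Both groups were grown in the same serum-containing medium and differed, per the labels, in the treatment only. The labels call the samples biological replicates and do not say whether the cultures were independent, so any p-value here measures only the spread between these samples, which may be technical. The genes were chosen by symbol from a table of 13439 genes, and 9 of the 10 had a row in it: the 7 metalloproteases MMP3, MMP14, ADAM9, ADAM10, ADAM15, ADAM17 and ADAM19, and the inhibitors TIMP1 and TIMP2. TIMP3 was not analysed here. The 10 genes were proposed with results of AIL against DMSO already known, so their differences are described here without p-values. The lists of other genes of the same system were also drawn up with earlier results known, and their adjusted p-values over all genes are no independent support.

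Matrix metalloproteinases (MMPs) are zinc proteases that cut extracellular matrix proteins. They are made as inactive precursors whose propeptide has to be removed. The ADAMs are related membrane proteases that mostly release the outer parts of other membrane proteins, a step called shedding, and tissue inhibitors of metalloproteinases (TIMPs) bind the active sites of both families. In bone tumours these proteases are studied for their part in matrix breakdown and invasion, which the title of the study names beside proliferation.

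The libraries had sizes of 32540000 to 38050000 reads after scaling by the authors. The summed CPM of listed genes came to 85.7 to 87.2% of the scaled size under AIL and 84.4 to 85.0% under DMSO. Since the scaling enters them, these are not shares of the sequenced reads. Values are CPM, reads of a gene relative to the size of its TMM-scaled library, and 1 read was worth 0.0263 to 0.0307 CPM. Markers of the labelled cell type were largely missing. Of 10 osteoblast markers, 4 had a row, and only RUNX2 exceeded 1 CPM (4.36 to 5.04 CPM), while the bone matrix genes SPARC and SPP1 stood at 0.12 to 0.28 and 0.11 to 0.28 CPM. The identity of the cells was not tested further. Of markers of other cells, 2 of 8 leukocyte genes had a row, with a summed level of 0.79 to 0.88 CPM under DMSO and 2.54 to 3.29 CPM under AIL. CD68 carried nearly all of it, and PTPRC, which defines leukocytes, was not among the rows. Endothelial markers (2 of 6 with a row) summed to at most 0.24 CPM, and 0 of 6 epithelial markers had a row. Of 13 mitochondrially encoded transcripts, held as a sign of RNA quality, 10 were lower under AIL and 0 higher (median log2 difference -0.20). Over all genes tested, 25.9% were lower and 28.2% higher (limma adjusted p under 0.05). Whether RNA quality or the treatment lay behind the mitochondrial difference was not tested.

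No promoter window of MMP3, ADAM9 or TIMP2 was searched. Promoter sequence in the RefSeq table (GRCh38.p14) was used for the other 6 of the 9 genes. The 250 bases before the start of 4 of them are shown because they belong to ADAM10 and ADAM17, the best known sheddases, to ADAM19, the gene with the largest decrease in the set, and to TIMP1, the inhibitor that was higher. ADAM10 is read from the minus strand of chr15:58749708-58749957, ADAM17 from the minus strand of chr2:9555831-9556080, ADAM19 from the minus strand of chr5:157575776-157576025 and TIMP1 from the plus strand of chrX:47582186-47582435. Each run is written 5′ to 3′, and capitals mark matches on either strand to the GC box GGGCGG or the ETS word CCGGAAG.
ADAM10: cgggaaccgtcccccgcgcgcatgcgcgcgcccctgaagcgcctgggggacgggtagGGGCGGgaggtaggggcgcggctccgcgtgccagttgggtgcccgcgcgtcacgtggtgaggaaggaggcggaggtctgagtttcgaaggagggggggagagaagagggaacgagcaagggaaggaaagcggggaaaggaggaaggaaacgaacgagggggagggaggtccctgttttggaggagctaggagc
ADAM17: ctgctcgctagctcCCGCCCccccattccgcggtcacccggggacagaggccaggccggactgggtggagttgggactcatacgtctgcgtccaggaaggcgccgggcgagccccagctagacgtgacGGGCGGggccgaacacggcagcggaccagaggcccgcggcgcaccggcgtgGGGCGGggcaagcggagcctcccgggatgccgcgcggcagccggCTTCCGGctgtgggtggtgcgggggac
ADAM19: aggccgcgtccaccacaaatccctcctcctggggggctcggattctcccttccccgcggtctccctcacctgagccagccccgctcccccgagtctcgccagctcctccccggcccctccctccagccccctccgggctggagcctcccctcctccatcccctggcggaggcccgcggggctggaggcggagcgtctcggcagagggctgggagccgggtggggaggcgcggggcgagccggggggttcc
TIMP1: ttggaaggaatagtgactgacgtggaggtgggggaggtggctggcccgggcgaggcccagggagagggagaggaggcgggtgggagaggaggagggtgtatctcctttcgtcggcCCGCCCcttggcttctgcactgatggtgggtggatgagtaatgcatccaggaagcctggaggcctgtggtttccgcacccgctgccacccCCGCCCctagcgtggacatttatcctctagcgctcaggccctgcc
The GC box matched 1 time in ADAM10, 3 times in ADAM17, 2 times in TIMP1 and 0 times in ADAM19, and it occurs in 42.6% of all 35116 promoter windows of this length. The ETS word matched 1 time in ADAM17 and in 0 of the other windows shown (8.52% of all windows). The AP-1 word TGANTCA (6.57% of all windows) and the cyclic AMP response word TGACGTCA (1.65%) matched in 0 of the 6 windows. MMP3, ADAM9 and TIMP2 are not among these windows. Only exact words were searched. The TIMP1 window holds tgagtaa, which differs from the AP-1 word in its next-to-last base. Such near matches are not particular to TIMP1. Others that differ by 1 base include tgactga in TIMP1, ggactca in ADAM17 and tgagcca in ADAM19. Their share over all windows was not counted. No matches overlapped each other. These are matches of letters only. The windows of ADAM17 and ADAM19, at 75.6 and 76.4% GC, were richer in GC than the median window (58%), and ADAM10 stood at 68.4% and TIMP1 at 64.8%.

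Under AIL, 1 of the 7 protease transcripts was higher and 6 were lower, and of the inhibitors TIMP1 was higher while TIMP2 overlapped. MMP3 was 2.43-fold its DMSO level, ADAM19 fell by 48.8%, and the other proteases fell by 8.84 to 22.3%. Summed over the 6 proteases other than MMP3, the level went from 838.6 ± 9.42 to 711.9 ± 9.8 CPM (SD, n = 3), a decrease of 15.1%. The sample values did not overlap between the groups for 8 of the 9 genes. That was also so for 60.1% of the 11069 genes tested (30.9% with AIL higher and 29.2% with AIL lower). The same 8 genes passed limma, fitted to log2(CPM + 1) over every gene averaging 1 CPM or more, at an adjusted p under 0.05, and so did 54.1% of all genes tested (28.2% higher and 25.9% lower). Nothing is read from these counts, since the genes were chosen from this comparison. All 9 genes passed the filter on low values. In bulk RNA, fewer cells of a type and less RNA per cell cannot be told apart.

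**Figure D1:**
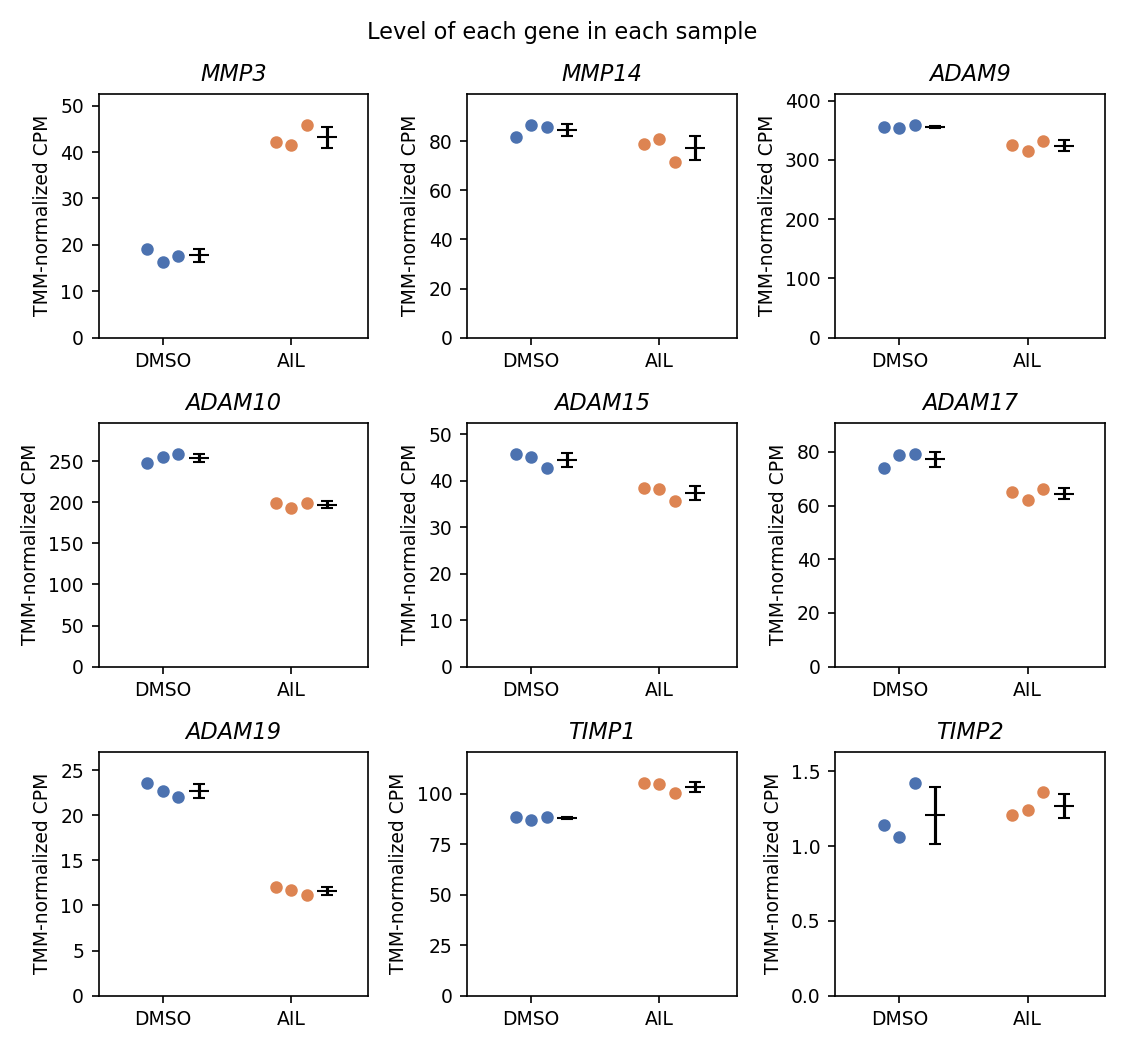
CPM of the 9 genes in each library, 1 panel a gene with the vertical axis from 0. Dots are samples and the black marks are group means with SD (n = 3); MMP3 and TIMP1 lie higher under AIL, TIMP2 overlaps, and the other 6 genes lie lower.

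MMP3 encodes stromelysin 1, a secreted protease that cuts proteoglycans and fibronectin and also activates other MMP precursors. Its level was 19.1, 16.4 and 17.6 CPM in the DMSO samples and 42.2, 41.5 and 45.8 CPM in the AIL samples. Every AIL sample lay above 2 times any DMSO sample. The means were 17.7 ± 1.37 and 43.2 ± 2.28 CPM (SD, n = 3), and the log2 difference was 1.24 (standard error, SE, 0.0545). Only 1 of the 11069 genes tested had a higher log2 difference. The scale of log2(CPM + 1) understates changes of low genes, so this is no rank of fold changes. CD68, with a log2 difference of 1.16, was 3.86-fold its DMSO level. Between 542 and 1643 reads lay behind each MMP3 value. Its replicates varied by 7.71% under DMSO and 5.28% under AIL, where counting alone would give 4.09 and 2.51%. Of its 50-base words in GENCODE 29 transcripts, 2.88% also occur in other genes, mostly in MMP10. MMP3 overlaps the transcribed pseudogene WTAPP1 on the opposite strand, which also overlaps MMP1 and MMP10 and had no row.

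MMP14 encodes a membrane-anchored collagenase that activates the MMP2 precursor, and MMP2 itself had no row. It stood at 81.8, 86.5 and 85.7 CPM under DMSO and at 78.8, 80.9 and 71.5 CPM under AIL. The groups did not overlap, but the highest AIL sample came within 1 CPM of the lowest DMSO sample. The means were 84.6 ± 2.49 and 77.1 ± 4.91 CPM (log2 difference -0.14, SE 0.0406), and without AIL replicate 3 the log2 difference was -0.08. Of all genes tested, 49.2% had a larger difference in either direction. MMP14 was the only one of the 8 genes that no longer passed limma when the fit had no intensity trend.

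The neighbours of MMP3 in the MMP cluster, by gene order in RefSeq (GRCh38.p14), are MMP1 and then MMP10 on one side. MMP1, the interstitial collagenase, was at 39.9, 38.3 and 39.4 CPM under DMSO and 43.2, 39.6 and 43.0 CPM under AIL, and the groups overlapped. Its log2 difference was 0.10 (limma adjusted p = 0.0609), and the limma adjusted p was 0.0262 with a block for replicate number and 0.0139 without AIL replicate 2. MMP10, the stromelysin closest to MMP3 in sequence, lay below the filter and was picked out after its values were seen. It had 0.4, 0.39 and 0.25 CPM under DMSO and 1, 0.61 and 0.72 CPM under AIL, which are 9 to 13 and 22 to 38 reads. The groups did not overlap, and no test was made. Within each library the ratio of MMP3 to MMP1 was 0.48, 0.429 and 0.448 under DMSO and 0.978, 1.05 and 1.06 under AIL. A ratio within a library does not depend on scaling, and this one went up 2.28-fold.

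ADAM10 is the main sheddase of Notch receptors and N-cadherin. Its level was 248, 255 and 258 CPM under DMSO and 199, 193 and 199 CPM under AIL. The AIL samples all lay lower, and no values overlapped. The means were 253.7 ± 5.2 and 197.1 ± 3.85 CPM, a decrease of 22.3% (log2 difference -0.36, SE 0.0266). ADAM17, which releases tumour necrosis factor and ligands of the EGF receptor, was at 74.1, 78.7 and 79.1 CPM under DMSO and at 65.2, 62.1 and 66.1 CPM under AIL. The groups were again separate, with means of 77.3 ± 2.78 and 64.5 ± 2.11 CPM and a log2 difference of -0.26 (SE 0.0358). The ratio of ADAM10 to ADAM17 was 3.24 to 3.35 under DMSO and 3.02 to 3.1 under AIL, a log2 change of -0.10. ADAM17 overlaps IAH1 on the opposite strand, and IAH1 was higher under AIL (29.6 against 39.0 CPM). Whether counting used the strand is not given in the sources used here, so reads of the shared stretch cannot be assigned.

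ADAM9 and ADAM15 encode membrane ADAMs that bind integrins through their disintegrin domains. ADAM9, the member with the highest CPM, had 355, 354 and 358 CPM under DMSO and 325, 315 and 333 CPM under AIL. The difference was small beside that of ADAM10, a decrease of 8.84% (log2 difference -0.13, SE 0.0257), but the groups did not overlap. ADAM15 had 45.7, 45.1 and 42.8 CPM under DMSO and 38.5, 38.1 and 35.7 CPM under AIL. All AIL samples lay lower, by 15.9% on average (log2 difference -0.24, SE 0.0415). ADAM15 shares 3.42% of its 50-base words with other genes, mostly DCST1, which overlaps it.

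ADAM19, or meltrin beta, is a membrane protease known for shedding neuregulin. Its level was 23.5, 22.7 and 22.0 CPM under DMSO and 12.04, 11.7 and 11.2 CPM under AIL. The groups lay far apart and each was narrow. The means were 22.7 ± 0.776 and 11.6 ± 0.438 CPM (log2 difference -0.91, SE 0.0532), and 6 of the 11069 genes tested had a lower one. This too is no rank of fold changes, since PLAT fell by 51.7% with a log2 difference of -0.79. The ADAM19 replicates varied by 3.41 and 3.76%, against 3.61 and 4.84% from counting alone. ADAM19 overlaps CYFIP2 and NIPAL4 on the opposite strand, which were at 11.5 and 1.77 CPM under DMSO and 11.8 and 1.63 CPM under AIL and were not called. The related ADAM12, meltrin alpha, was not a member and went the other way, from 6.48 to 6.64 CPM under DMSO to 7.55 to 8.94 CPM under AIL (log2 difference 0.26, limma adjusted p = 0.00641, and 0.0551 without AIL replicate 1). The ratio of ADAM19 to ADAM12 was 3.31 to 3.58 under DMSO and 1.35 to 1.52 under AIL. The summed mitochondrially encoded transcripts also lay lower under AIL, at 4205 to 4374 CPM under DMSO and 3600 to 3726 CPM under AIL. Their part in the decrease was not tested.

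TIMP1 is a secreted inhibitor of most MMPs and of ADAM10. It had 88.3, 87.2 and 88.4 CPM under DMSO and 105, 105 and 100.4 CPM under AIL. The DMSO samples lay within 2 CPM of each other, and all AIL samples lay above them. The means were 87.9 ± 0.654 and 103.4 ± 2.6 CPM, an increase of 17.5% (log2 difference 0.23, SE 0.0298). TIMP1 overlaps SYN1 on the opposite strand, and SYN1 had no row. TIMP2, which also takes part in the activation of the MMP2 precursor by MMP14, had 1.14, 1.06 and 1.42 CPM under DMSO and 1.21, 1.24 and 1.36 CPM under AIL. The samples overlapped, and the log2 difference of 0.04 (SE 0.104) was smaller than its error. With 35 to 51 reads a sample, counting alone gives a spread of 15.6% under DMSO, so a change of the size seen in TIMP1 was not detectable at this depth.

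Proteases were also set against TIMP transcripts as ratios of CPM within each library, which compares libraries and not the amounts of 2 transcripts. TIMP1 is known to inhibit MMP3 and ADAM10, but it is a poor inhibitor of MMP14 and does not inhibit ADAM17, so the ratios of those 2 genes to TIMP1 do not pair a protease with its inhibitor. The ratio of MMP3 to TIMP1 was 0.217, 0.188 and 0.2 under DMSO and 0.402, 0.397 and 0.456 under AIL, 2.07 times as high in the mean. The ratio of MMP14 to TIMP1 went the other way, from 0.927, 0.992 and 0.97 to 0.75, 0.773 and 0.713. The ratio of ADAM10 to TIMP1 was 2.81 to 2.92 under DMSO and 1.84 to 1.99 under AIL, and that of ADAM17 to TIMP1 was 0.84 to 0.903 and 0.594 to 0.659. In these 4 ratios the groups did not overlap. For MMP14, ADAM10 and ADAM17 this follows from the levels, since each was lower and TIMP1 higher in every AIL sample. It adds nothing to those levels, and the ratios of these genes to TIMP1 were not planned. The ratio of MMP14 to TIMP2, at 60.3 to 81.6 under DMSO and 52.6 to 65.2 under AIL, overlapped.

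**Figure D2:**
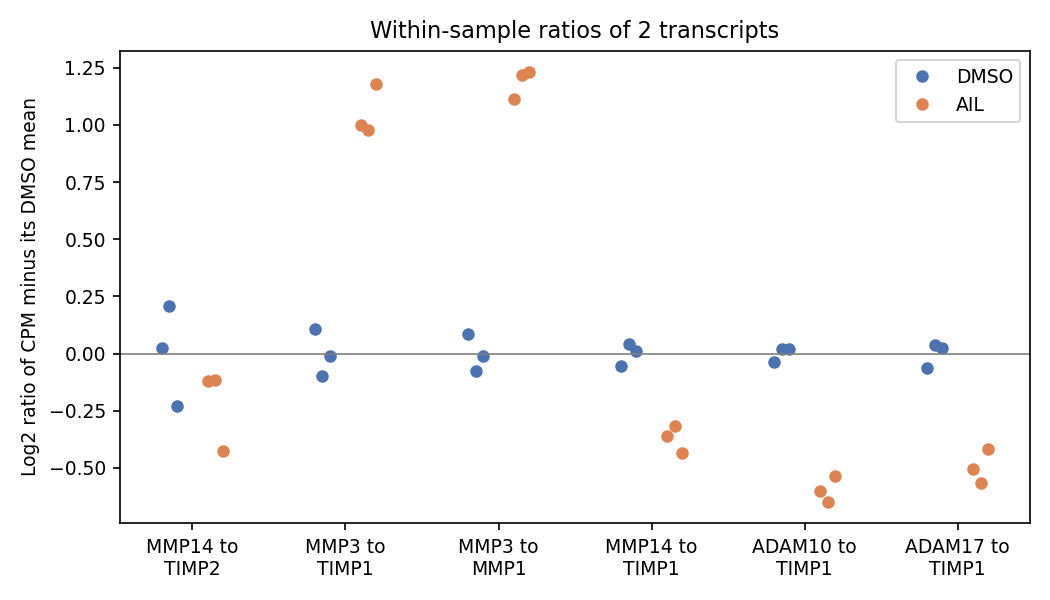
Log2 ratio of the CPM of 2 transcripts within each library, less the mean of the DMSO libraries. Each dot is 1 library; ratios of MMP3 are higher in all AIL libraries, those of MMP14, ADAM10 and ADAM17 to TIMP1 are lower, and that of MMP14 to TIMP2 overlaps.

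Levels were compared between genes per kilobase of the longest coding transcript in GENCODE 29, which may not be the annotation of the authors. On this scale ADAM9 and TIMP1 were highest under DMSO, at 92.6 and 80.3 CPM per kilobase. MMP14 and ADAM10, whose samples overlapped, followed at 22.7 and 22.2, ADAM17 at 17.5 and ADAM15 at 15.1, MMP3 at 8.79, ADAM19 at 3.51 and TIMP2 at 0.33. Under AIL, MMP3 had 21.4 CPM per kilobase and took the third place after TIMP1 and ADAM9, with samples that overlapped those of MMP14, and TIMP1 was the highest. The place of ADAM10 depends on the transcript, since its longest one has 11431 bases. With the median coding transcript of 601 bases ADAM10 came first in both groups, and MMP3 moved from the seventh to the fourth place. That first place rests on the short median length, with 422 CPM per kilobase under DMSO against 22.2 for the longest transcript.

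**Figure D3:**
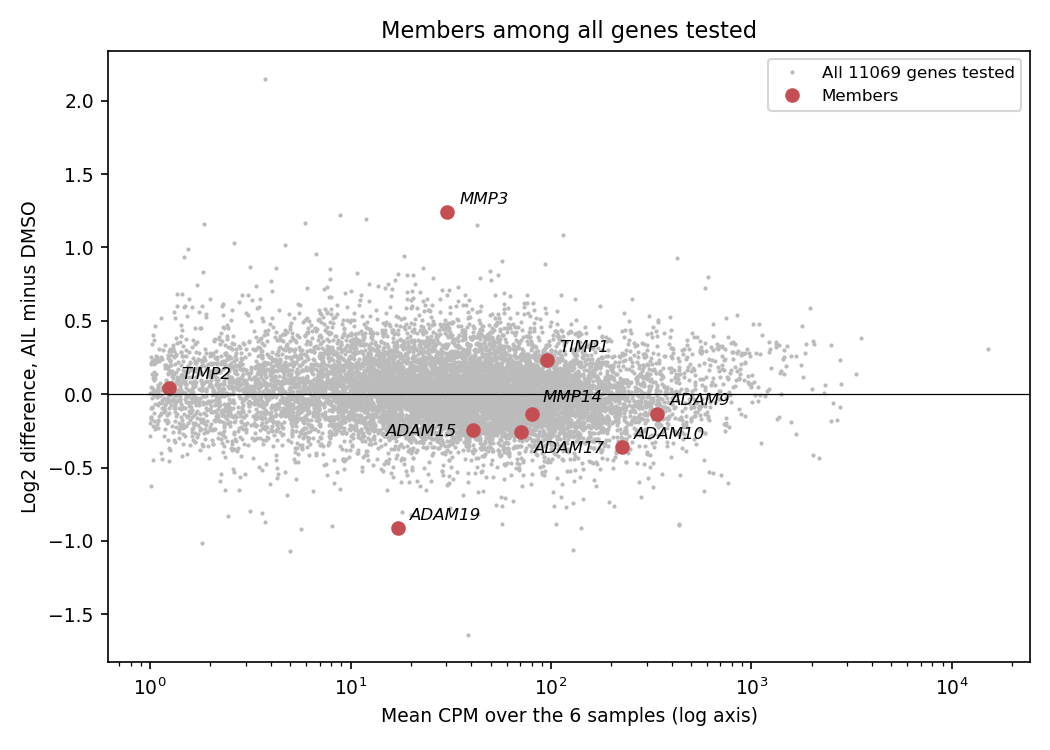
Difference between AIL and DMSO (log2 of CPM + 1) against the mean CPM of all 11069 genes tested (grey), with the 9 members in red. MMP3 lies at the upper edge and ADAM19 at the lower edge, and the other members lie between -0.36 and 0.23.

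Genes of the same system outside the members were taken from 8 lists of other proteases, inhibitors and activators, 98 genes of which 66 had a row and 41 were tested. By limma with adjustment over all genes tested, 7 rose, 21 fell and 13 were not called, with a median log2 difference of -0.13. Over all genes tested the median was 0.01, and 28.2% rose and 25.9% fell. The mitochondrially encoded list, with its median of -0.20, moved in the same direction, and its part in these counts was not tested.

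Of the other MMPs, 9 of 21 had a row and 4 were tested. MMP17, anchored in the membrane by a lipid, fell from 5.44, 5.63 and 4.97 to 3.47, 3.9 and 2.78 CPM (log2 difference -0.54, SE 0.0941, limma adjusted p = 1.12e-04). The membrane-type MMP16 fell by 0.14 (limma adjusted p = 0.0377) and MMP15 rose by 0.29 (0.0336) on the log2 scale. The call of MMP16 was lost without DMSO replicate 1 or 3 or AIL replicate 1 or 2, and that of MMP15 without DMSO replicate 2 or 3 or AIL replicate 1 or 3. The limma adjusted p went up to 0.216 for MMP16 and 0.145 for MMP15, both without DMSO replicate 3. The groups overlapped for MMP15, and its log2 difference was 0.44 with a pseudocount of 0.1 and 0.11 with 5.

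Of the other ADAMs, 4 of 11 were tested. ADAM22, a neuronal ADAM without protease activity, fell from 10.9 to 11.9 CPM under DMSO to 8.36 to 9.72 CPM under AIL (log2 difference -0.30, limma adjusted p = 0.00106). ADAM11, also without protease activity, rose by 0.37 from a low level (0.67 to 0.84 against 1.13 to 1.49 CPM, limma adjusted p = 0.00796), and by 0.67 with a pseudocount of 0.1 and 0.12 with 5. ADAM12 rose as given above. Of 6 tested ADAMTS proteases, which are secreted and cut proteoglycans and procollagens, 3 fell and 1 rose. Over all genes tested, 25.9% fell and 28.2% rose. ADAMTS9 fell from 10.4, 11.0 and 11.1 to 8.1, 8.02 and 8.16 CPM (log2 difference -0.38, SE 0.0612, limma adjusted p = 5.03e-05). ADAMTS16 rose by 0.31 (limma adjusted p = 0.00343). ADAMTS3 and ADAMTS6 fell by 0.26 and 0.11, with limma adjusted p-values of 0.0189 and 0.0275 that went up to 0.0608 and 0.132 without DMSO replicate 3. Both were also above the threshold without DMSO replicate 2 or AIL replicate 1. ADAMTS1, the member of this list with the highest CPM, was at 211 to 221 CPM under DMSO and 211 to 225 CPM under AIL (log2 difference 0.01, limma adjusted p = 0.879), and the difference was below 0 with median-of-ratios scaling (-0.00362).

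Among 8 tested metalloproteases of other families, MME, the peptidase neprilysin, rose from 9.16, 8.84 and 8.68 to 11.9, 11.7 and 12.8 CPM (log2 difference 0.41, SE 0.0613, limma adjusted p = 2.46e-05). Carboxypeptidase D (CPD) fell by 0.22 (limma adjusted p = 7.40e-06) and the endothelin-converting enzyme ECE1 by 0.12 (0.0118, and 0.0531 without DMSO replicate 3). Both tested inhibitors outside the TIMPs fell, where 25.9% of all genes tested fell. RECK, a membrane-anchored inhibitor of MMPs, went from 4.98, 5.57 and 6.56 to 4.78, 4.04 and 4.2 CPM (log2 difference -0.32, SE 0.0908, limma adjusted p = 0.00603). TFPI2, a secreted inhibitor of plasmin that is also reported to act on MMPs, fell from 419, 427 and 413 to 338, 334 and 334 CPM (log2 difference -0.32, limma adjusted p = 8.17e-09).

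Genes that bring ADAMs and MMP14 to their active state were tested next. FURIN, the convertase that removes the propeptide of MMP14 and of many ADAMs, had 46.2, 46.0 and 45.5 CPM under DMSO and 33.1, 32.2 and 28.8 CPM under AIL. No values overlapped, and the fall was 31.7% (log2 difference -0.54, SE 0.0466, limma adjusted p = 4.48e-08). The convertase PCSK7 fell by 0.19 (limma adjusted p = 5.58e-04), and PCSK6 was not called (log2 difference 0.05, limma adjusted p = 0.443). Of the 8 tested genes of the tetraspanin and iRhom list, which also holds FRMD8, 5 fell, 0 rose and 3 were not called. Over all genes, 25.9% fell and 28.2% rose. FRMD8 (log2 difference -0.12, limma adjusted p = 0.0573) and TSPAN33 (log2 difference -0.15, limma adjusted p = 0.0815) were among those not called. Tetraspanins of the C8 group carry ADAM10 out of the endoplasmic reticulum, and TSPAN5 fell from 62.5, 64.0 and 61.9 to 44.1, 44.7 and 43.8 CPM (log2 difference -0.50, SE 0.0337, limma adjusted p = 2.46e-09). TSPAN15 fell by 0.26 (limma adjusted p = 0.00552) and TSPAN17 by 0.12 (0.0164, and 0.0668 without AIL replicate 3 or 0.0595 without DMSO replicate 2), while TSPAN14 was not called (log2 difference -0.07, limma adjusted p = 0.119). The iRhoms, which carry ADAM17 to the surface, fell as well, RHBDF1 by 0.35 (limma adjusted p = 9.55e-04) and RHBDF2 by 0.26 (limma adjusted p = 0.00158).

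**Figure D4:**
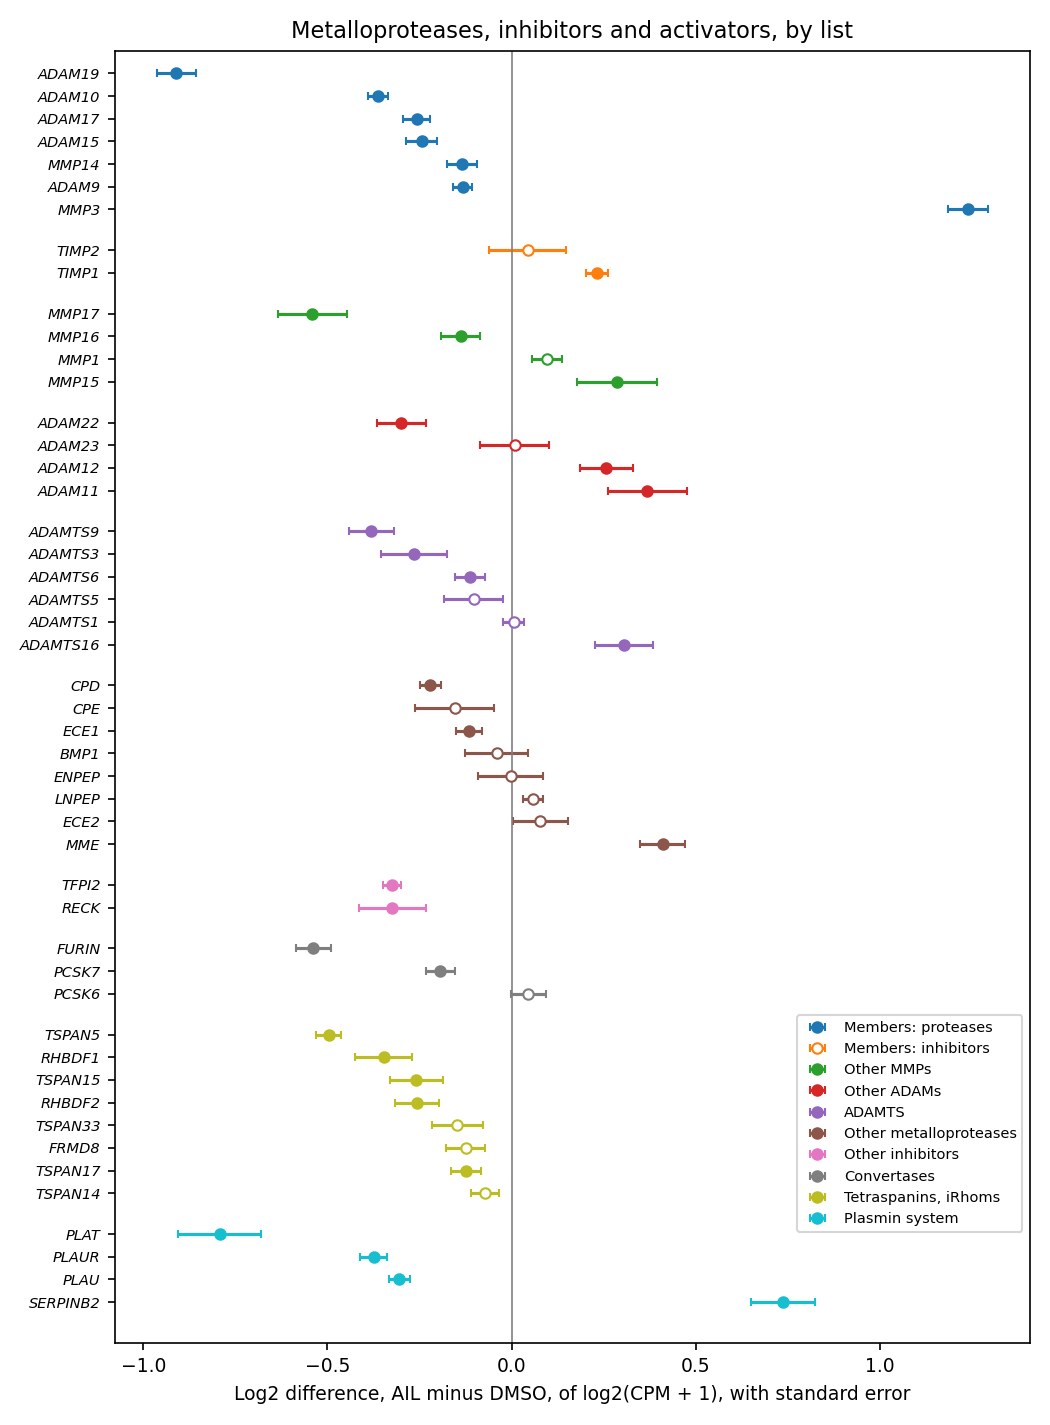
Log2 difference of AIL minus DMSO with its standard error for the tested genes of each list, coloured by list; of the plasmin system the 4 genes with the smallest p are drawn. Filled markers passed limma at an adjusted p under 0.05 over all genes and open markers did not. In the tetraspanin and iRhom list, which also holds FRMD8, 5 of 8 genes lie lower and filled, as do 2 of 3 convertases.

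The plasmin system activates several MMP precursors, and all 6 of its tested genes were called, 4 lower and 2 higher, where 54.1% of all genes were called. The urokinase gene PLAU fell from 271, 261 and 253 to 213, 208 and 214 CPM (log2 difference -0.31, limma adjusted p = 9.43e-08). Its receptor gene PLAUR fell by 0.37 (limma adjusted p = 1.88e-07). The tissue activator PLAT fell from 4.67, 3.78 and 4.3 to 2.63, 1.94 and 1.59 CPM (log2 difference -0.79, limma adjusted p = 1.34e-05). SERPINB2, an inhibitor of urokinase, rose from 2.43, 2.09 and 2.34 to 4.55, 4.09 and 4.79 CPM (log2 difference 0.74, limma adjusted p = 1.78e-06), and other genes hold 18.2% of its 50-base words.

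Of 25 genes for membrane proteins that ADAMs are known to shed, 23 were tested, of which 12 fell, 5 rose and 6 were not called (median log2 difference -0.13), against 25.9% lower and 28.2% higher over all genes. The prion protein gene PRNP fell from 426, 416 and 433 to 339, 328 and 329 CPM (log2 difference -0.36, limma adjusted p = 4.66e-09). The syndecan gene SDC4 fell by 0.40 (limma adjusted p = 1.20e-08) and the adhesion genes ALCAM and VCAM1 by 0.34 (limma adjusted p = 8.30e-08) and 0.92 (limma adjusted p = 4.86e-08). The genes that rose were picked out after their values were seen. NOTCH1 went from 1.04, 1.09 and 0.87 to 2.02, 2.16 and 2.23 CPM (log2 difference 0.65, limma adjusted p = 2.63e-05), and the log2 difference was 1.03 with a pseudocount of 0.1 and 0.25 with 5. The interleukin 6 receptor gene IL6R went from 2.52, 2.75 and 2.37 to 4.44, 4.67 and 4.54 CPM (log2 difference 0.65, limma adjusted p = 4.02e-06). NOTCH2, EREG and BTC rose by 0.11, 0.18 and 0.40, and 23.4% of the 50-base words of NOTCH2 occur in other genes. With an average of 5 CPM required, 2 of these genes were higher, since NOTCH1, IL6R and BTC lie below it. APP and CD44, also picked out after their values were seen, were not called (log2 differences -0.05 and -0.03), but with quantile normalization they were at -0.14 and -0.14 (limma adjusted p = 9.86e-06 and 2.89e-04).

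AP-1 and ETS proteins are known to act at promoters of MMP genes, MMP3 among them, though no promoter window of MMP3 was searched here. Of 12 tested genes of this list, 4 fell, 0 rose and 8 were not called (median log2 difference -0.03), against 25.9% lower and 28.2% higher over all genes. With the replicate block 2 were higher, ETS1 (log2 difference 0.05, limma adjusted p = 0.107, and 0.04 with the block) and FOSL1. ETV5 fell by 0.28 (limma adjusted p = 1.31e-06), ELK3 by 0.12 (0.00163), JUN by 0.11 (0.00988) and ETV4 by 0.13 (0.0279). Without DMSO replicate 2 the count of lower genes was 2, because JUN and ETV4 had limma adjusted p-values of 0.055 and 0.118. The call of JUN was also lost without AIL replicate 1 (0.0532), and that of ETV4 without DMSO replicate 1 (0.0979) or AIL replicate 3 (0.0748). ETS1 and the AP-1 genes FOSL1 and FOS were picked out after their values were seen. FOSL1 was at 39.0 to 43.5 CPM under DMSO and 42.6 to 44.6 CPM under AIL (log2 difference 0.08, limma adjusted p = 0.117, 0.0494 with the replicate block and 0.0257 without DMSO replicate 1). FOS was at 2.06 to 2.6 and 2.42 to 2.85 CPM (limma adjusted p = 0.317).

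Genes with a pattern like those of MMP3 and ADAM19 were taken by the Euclidean distance over the 6 samples of log2(CPM + 1) less the DMSO mean, among 9691 genes averaging 5 CPM or more. Nearest to MMP3 were the keratin-associated gene KRTAP2-3 (distance 0.209), the adrenomedullin gene ADM (0.272) and the pregnancy-specific glycoprotein gene PSG4 (0.287). ADM had 26.3 ± 1.79 CPM under DMSO and 59.5 ± 3.19 CPM under AIL (SD, n = 3). Other genes hold 39.7% of the 50-base words of KRTAP2-3 and 15.5% of those of PSG4. Nearest to ADAM19 were the spectrin gene SPTB (distance 0.0474), the desaturase gene SCD (0.0673) and the protein disulfide isomerase gene PDIA4 (0.0705). SPTB had 10.9 ± 0.37 and 5.36 ± 0.254 CPM. The distance is set mainly by the size of the difference between the groups.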

How the data were processed

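The authors deposited 1 table of TMM-normalized CPM to 2 decimals, per the file name. RSEM and edgeR 3.8.5 are named in the submitters' processing notes without a role. No source used here gives the aligner, genome build, annotation or strand setting. The step of 1 read was found from the low values. Of values up to 2000 reads, 99.95 to 99.98% lay within 0.2 reads of a whole number but only 52.4 to 65.1% within 0.1 reads, where 95% is required for a count test, so none was run.

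Samples were grouped by their titles. Genes averaging 1 CPM or more (11069 of 13439) were fitted with limma 3.58.1 (R 4.3.3) on log2(CPM + 1) with an intensity trend, two-sided, without covariates, with Benjamini-Hochberg adjustment over all genes tested. This scale understates changes of low genes. The fit was tested on simulated data. The members and the lists were chosen with earlier results of these data known. All tested genes of the protease, inhibitor, convertase and tetraspanin lists could be named, and up to 4 with the smallest p of each other list; genes named beyond this were chosen after their values were seen. Samples of equal replicate number deviated together (r = 0.159, 0.133 and 0.129 across genes, each above 0.1), while r was -0.179 to 0.021 between unlike numbers. Deviations were taken from the group mean of each gene, so positive r at equal numbers pushes the others below 0 on average. Any pairing thus rests on these weak correlations alone. The main fit did not use it, and a blocked fit was run as an alternative. The other alternatives were the pseudocount, the filter, the scaling, the intensity trend and leaving out each sample. No planned ratio to TIMP3 was computed, and some results are not reported here.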

Additional observations from a re-analysis of the deposited data

How the results depend on the processing

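Over 14 alternatives, the differences of MMP3 (1.08 to 1.29), ADAM19 (-0.96 to -0.74), ADAM10 (-0.38 to -0.34), ADAM17 (-0.29 to -0.23), ADAM15 (-0.27 to -0.21), ADAM9 (-0.15 to -0.11) and TIMP1 (0.22 to 0.25) kept their direction and their side of the threshold. MMP14 kept its direction (-0.17 to -0.08) and missed the threshold without an intensity trend (adjusted p = 0.0612). TIMP2 was not called under any of them that tested it, with differences of -0.00420 (without DMSO replicate 2) to 0.11, and was not tested at a mean of 5 CPM.

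Over all genes tested, 3122 were higher and 2869 lower, and leaving out 1 sample gave 2709 to 3270 and 2527 to 2924. With the replicate block the counts were 3347 and 3121. The block put MMP1, APP, FOSL1 and ETS1 past the threshold (adjusted p = 0.0262, 0.0283, 0.0494 and 0.04) and, among the other genes followed through the alternatives, changed no call. APP was also called with median-of-ratios scaling (0.0323), APP and CD44 with quantile normalization (9.86e-06 and 2.89e-04) and ETS1 with the latter (0.0284). Low genes kept their calls but not their size with a pseudocount of 5: BTC 0.18, IL6R 0.34, SERPINB2 0.38, ADAMTS16 0.18, ADAMTS3 -0.12, TSPAN15 -0.16, RECK -0.19, MMP17 -0.31, PLAT -0.39 and VCAM1 -0.56. Calls of ECE1, MMP16 and TSPAN17 were also lost without an intensity trend (adjusted p = 0.0671, 0.0625 and 0.0636), that of MMP16 without a filter (0.0653) and that of MMP15 with quantile normalization (0.0656). In the 8 lists outside the members, 4 genes were higher with a mean of at least 5 CPM, against 7, since fewer were tested. In the list of shed proteins 2 were higher with that filter, against 5. In the AP-1 and ETS list, where 0 were higher, 1 was higher with quantile normalization and 2 with the replicate block. Leaving out 1 sample gave 0 to 1 higher and 2 to 4 lower in that list. ADAMTS1, near 0, was at -0.00362 with median-of-ratios scaling and at -0.0192 to 0.0275 without single samples; the cause was not tested. Depth limits TIMP2 and MMP10, with 51 reads or fewer a sample.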
